A study of Homo sapiens with 16 samples.

Results

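The nuclear lamina genes described here are the 3 lamin genes LMNB1, LMNB2 and LMNA, the lamin receptor and LEM-domain genes LBR, TMPO, EMD and LEMD3, the chromatin-binding factor BANF1, and the LINC complex genes SUN1 and SUN2. They were chosen by name as lamins and partners of the inner nuclear membrane, and all 10 were found by gene symbol among the 58676 genes of the count files. Poly(A) RNA had been sequenced from 2 established human cell lines, A549 from a lung cancer and SUM159 from a triple-negative breast cancer. In each line, cells were untreated (UT) or had received 2 µM palbociclib (PD), 3 µM indisulam (IN) or both drugs at those doses (P+I) for 16 h. Within a line, no genetic change distinguished the groups. Palbociclib inhibits the cell cycle kinases CDK4 and CDK6. Indisulam causes the degradation of the splicing factor RBM39. Each of the 8 groups held 2 libraries, called technical duplicates in the series' design, so p-values measure only the spread between such duplicates and not that between independent cultures.

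The lamina is a meshwork of lamin filaments beneath the inner nuclear membrane. B-type lamins stay attached to the membrane by a lipid anchor, whereas mature lamin A has lost it. Integral membrane proteins tether the lamina to chromatin, and the LINC complex links it across the envelope to the cytoskeleton. Loss of lamin B1 is a widely used marker of senescence. LMNB1 is also expressed with cell proliferation. The study reports reduced lamin B1 protein in A549 on Western blots with the combination, after longer treatment and at a lower indisulam dose. The values here are RNA, so measure, time and dose are unlike, and senescence was not measured in these libraries. In bulk RNA, a change in the share of cells of one state and a change in the RNA of each cell cannot be told apart.

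Gene counts ran from 18306636 to 34075588 per library, and each of the 10 genes had between 400 and 22184 counts in every library. All 10 genes passed the filter on low counts in both lines. Levels are given as CPM (counts per 1000000 counts of a library) after scaling by the trimmed mean of M-values. The SD between duplicates was between 0.0152% and 15.4% of the mean over the 80 gene and group pairs, with a median of 1.84%. The widest spread was that of LMNB2 in A549 P+I. The line labels were checked against marker genes. Of 6 epithelial markers, 5 had higher levels in every A549 library than in any SUM159 library, such as EPCAM (21.2 to 27.0 CPM in A549 and at most 0.596 CPM in SUM159). The other, KRT7, had a median of 1504 CPM in A549 and 2208 CPM in SUM159, and the ranges overlapped. The mesenchymal marker SPARC was at most 0.317 CPM in A549 and at least 473 CPM in SUM159. Of the receptor genes taken as low in triple-negative breast cancer, PGR was at most 0.0379 CPM and ESR1 at most 0.792 CPM in SUM159. In A549, PGR had 0 CPM and ESR1 at most 0.0488 CPM. ERBB2 was at 92.6 to 144 CPM in SUM159 and 110 to 143 CPM in A549, so it did not separate the lines. CDKN2A, whose products include the CDK inhibitor INK4A, was at 1.40 to 2.56 CPM in the libraries labelled A549 and at most 0.0454 CPM in those labelled SUM159. The study describes A549 as lacking INK4A. It reports an increase of the INK4A protein in SUM159 on Western blots, after longer treatment at other doses. The values here are RNA and merge the products of the gene, so the measures are unlike. This RNA was higher in A549 than in SUM159, and the reason was not tested. Among 5 immune and endothelial markers, PTPRC (2.88 to 4.52 CPM) and PECAM1 (16.5 to 38.5 CPM) were above 1 CPM in SUM159, whereas CD3E did not exceed 0.0454 CPM in any library. The summed level of these 5 markers was between 1.05 and 2.04 CPM in A549 libraries and between 20.5 and 42.6 CPM in SUM159 libraries. The part of these levels in the differences between the lines was not tested.

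LMNB1 (ENSG00000113368, chr5:126776623-126837020, GRCh38, 11 exons in the canonical transcript) encodes lamin B1, and it was the member that fell most with palbociclib and with the combination in both lines, but not with indisulam. In A549 the untreated libraries held 193 and 194 CPM of LMNB1, the palbociclib libraries 48.6 and 43.1 CPM, the indisulam libraries 111 and 111 CPM, and the combination libraries 18.4 and 20.0 CPM. No treated library overlapped the untreated ones, and the combination libraries lay lowest. FDR stands for the p of edgeR's quasi-likelihood test adjusted by Benjamini-Hochberg over all genes tested. The log2 change was -2.09 ± 0.06 with palbociclib (SE, n = 2 libraries per group, FDR = 5.52e-13), -0.80 ± 0.05 with indisulam (FDR = 1.93e-08) and -3.34 ± 0.06 with the combination (FDR = 1.25e-14). In SUM159 the untreated libraries held 209.6 and 201 CPM, the palbociclib libraries 56.4 and 57.7 CPM, the indisulam libraries 178 and 180.0 CPM, and the combination libraries 41.9 and 40.5 CPM. The order of the groups was the same in both lines, but indisulam alone left SUM159 closer to its untreated level. The log2 change in SUM159 was -1.85 ± 0.04 with palbociclib (FDR = 2.61e-15), -0.20 ± 0.04 with indisulam (FDR = 0.00039) and -2.31 ± 0.04 with the combination (FDR = 7.42e-17). After the combination, 9.90% of the untreated mean level of LMNB1 was left in A549 and 20.1% in SUM159. Among the 10732 genes whose mean in A549 was 5 CPM or more, 0.531% had a lower log2 change than LMNB1 with palbociclib and 0.177% with the combination.

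**Figure D1:**
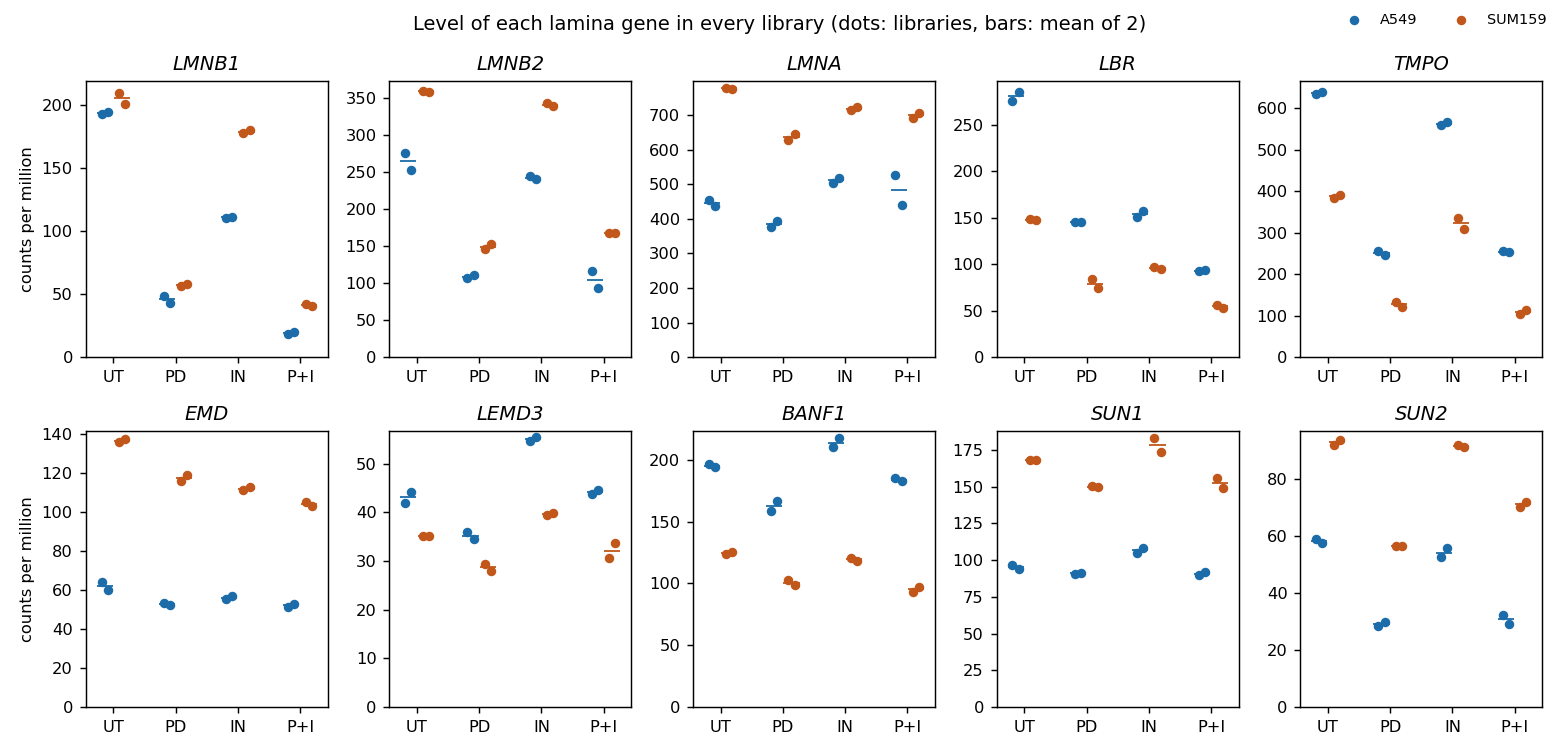
CPM of each lamina gene (vertical axes, each from 0) in untreated (UT), palbociclib (PD), indisulam (IN) and combination (P+I) libraries of A549 (blue) and SUM159 (orange). Dots are the 2 libraries of a group and bars their mean, and LMNB1 in A549 falls from 193 and 194 CPM untreated to 18.4 and 20.0 CPM with the combination.

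LMNB2 (ENSG00000176619, chr19:2427638-2456959) encodes the other B-type lamin. It fell with palbociclib and did not pass the test with indisulam. In A549 it was at 276 and 253 CPM untreated, 107 and 111 CPM with palbociclib, 245 and 240.2 CPM with indisulam, and 116 and 93.5 CPM with the combination. SUM159 libraries had 359.8 and 359 CPM untreated, 146 and 153 CPM with palbociclib, 343 and 339.6 CPM with indisulam, and 168 and 168 CPM with the combination. The palbociclib libraries and the combination libraries thus lay far below the others in both lines. The log2 change with palbociclib was -1.28 ± 0.07 in A549 (FDR = 3.43e-09) and -1.27 ± 0.04 in SUM159 (FDR = 2.65e-14). With indisulam it was -0.13 ± 0.07 in A549 (FDR = 0.154) and -0.07 ± 0.03 in SUM159 (FDR = 0.0954). LMNB2 in A549 passed the test of indisulam without either P+I library (log2 change -0.15, FDR = 0.00789 without the first and 0.00809 without the second), with no filter on low counts (-0.13, FDR = 0.0187) and with only the groups compared (-0.12, FDR = 0.0148). In SUM159 it passed with relative log expression size factors (-0.09, FDR = 0.0496).

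LMNA (ENSG00000160789, chr1:156082573-156140081) encodes lamins A and C, which the gene counts do not separate. Its changes were small. In A549 it was at 455 and 438 CPM untreated, 376 and 394 CPM with palbociclib, 503 and 519 CPM with indisulam, and 525 and 439.9 CPM with the combination. In SUM159 it was at 778 and 776 CPM untreated, 629 and 645 CPM with palbociclib, 715 and 722 CPM with indisulam, and 692 and 706 CPM with the combination. The combination libraries of A549 lay on either side of the untreated mean and overlapped the untreated range, whereas in SUM159 every treated library lay below both untreated ones. LMNA fell with palbociclib, by a log2 change of -0.21 ± 0.06 in A549 (FDR = 0.0134) and -0.29 ± 0.03 in SUM159 (FDR = 1.44e-06). The A549 call was lost without the first UT library (-0.19, FDR = 0.0944) or the first PD library (-0.18, FDR = 0.095), and under scaling by total counts (-0.15, FDR = 0.0821). With the combination the log2 change of LMNA was 0.11 ± 0.06 in A549 (FDR = 0.142), where it passed without the second P+I library (0.23, FDR = 0.000578), and -0.15 ± 0.03 in SUM159 (FDR = 0.000686), where scaling by total counts gave -0.01 (FDR = 0.903).

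The balance of the 3 lamins was described by dividing each gene's counts by the length of all its annotated exons and taking shares of the sum. In A549 LMNB1 made up 33.2% and 34.7% of lamin counts per exon base in untreated libraries, 16.8% and 14.7% in PD libraries, 22.1% and 22.1% in IN libraries, and 5.56% and 7.15% in P+I libraries. LMNA made up 34.9% and 34.9% in untreated libraries and 70.8% and 70.3% with the combination. In SUM159 the LMNB1 share was 26.2% and 25.5% untreated, 12.96% and 12.87% in PD libraries, 24.4% and 24.6% in IN libraries, and 9.04% and 8.65% in P+I libraries. LMNB2 changed less, from 31.2% ± 1.09 (SD, n = 2) untreated to 23.1% ± 0.778 with the combination in A549. These shares depend on the length used, because the annotated exons of LMNA sum to 8141 bases over 42 transcripts whereas its canonical transcript has 3178. With canonical transcript lengths the A549 share of LMNA was 53.1% untreated and 83.8% with the combination, and that of LMNB1 was 25.4% and 3.71%. The direction of the shift was the same under either length and under coding length, but this could not have come out otherwise. A length is constant over the libraries, and with the combination LMNB1 had the lowest and LMNA the highest change of the 3 lamins.

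**Figure D2:**
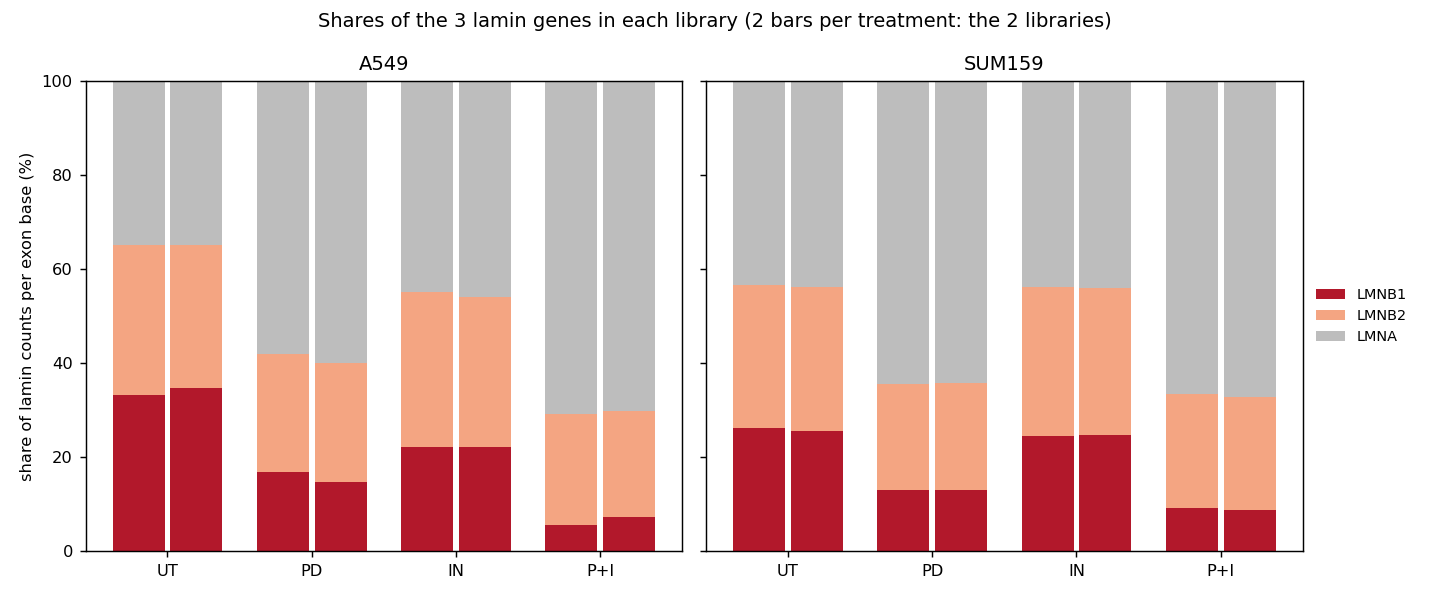
Share of LMNB1, LMNB2 and LMNA in lamin counts per exon base (percent, vertical axis) in each of the 16 libraries, 2 bars per treatment. The LMNB1 share falls from 33.2% and 34.7% in untreated A549 to 5.56% and 7.15% with the combination, and from 26.2% and 25.5% to 9.04% and 8.65% in SUM159.

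LBR (ENSG00000143815, chr1:225401502-225428925) encodes the lamin B receptor, a membrane protein that binds lamin B and heterochromatin and also acts as a sterol reductase. It fell with each drug alone and was lowest with the combination. LBR in A549 was at 276 and 286 CPM untreated, 146 and 146 CPM with palbociclib, 151 and 157 CPM with indisulam, and 92.5 and 93.6 CPM with the combination. LBR in SUM159 was at 149 and 147 CPM untreated, 84.3 and 74.4 CPM with palbociclib, 97.1 and 94.4 CPM with indisulam, and 56.7 and 52.5 CPM with the combination. No group overlapped another in either line. With indisulam LBR had the lowest log2 change of the members, close to that of LMNB1 in A549. It was -0.86 ± 0.04 in A549 (FDR = 8.27e-10) and -0.63 ± 0.05 in SUM159 (FDR = 5.42e-08). With the combination it changed by -1.59 ± 0.04 in A549 (FDR = 2.42e-13) and -1.44 ± 0.05 in SUM159 (FDR = 4.31e-13).

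TMPO (ENSG00000120802, chr12:98515579-98550351) encodes the lamina-associated polypeptide LAP2 proteins, some in the membrane and one soluble, which share the LEM domain and which the counts merge. In A549 it was at 634 and 639 CPM untreated, 255 and 246 CPM with palbociclib, 559.6 and 567 CPM with indisulam, and 256 and 254 CPM with the combination. The palbociclib and combination libraries of A549 overlapped each other and lay far below the rest. In SUM159 it was at 385 and 392 CPM untreated, 132 and 122 CPM with palbociclib, 336 and 309 CPM with indisulam, and 104 and 115 CPM with the combination. Here the combination libraries lay below both palbociclib libraries. The log2 change with palbociclib was -1.35 ± 0.04 in A549 (FDR = 8.00e-13) and -1.61 ± 0.05 in SUM159 (FDR = 1.01e-13). With indisulam it was -0.18 ± 0.04 in A549 (FDR = 0.00111) and -0.27 ± 0.05 in SUM159 (FDR = 0.000268). TMPO shares 646 exon bases with the antisense gene TMPO-AS1, which had 28 to 392 counts, and its pseudogene TMPOP2 had at most 14 counts.

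The largest log2 change of the other LEM-domain members against untreated cells was -0.39. EMD (chrX:154379273-154381574) encodes emerin, and LEMD3 (chr12:65169583-65248355) encodes MAN1, which also binds SMAD proteins. EMD in A549 was at 64.0 and 60.3 CPM untreated, 53.2 and 52.3 CPM with palbociclib, 55.3 and 56.9 CPM with indisulam, and 51.5 and 52.7 CPM with the combination. EMD in SUM159 was at 136 and 138 CPM untreated, 116 and 119 CPM with palbociclib, 111 and 113 CPM with indisulam, and 105 and 103 CPM with the combination. Every treated library thus lay below both untreated ones in each line. The log2 change of EMD with the combination was -0.25 ± 0.05 in A549 (FDR = 0.000901) and -0.39 ± 0.04 in SUM159 (FDR = 1.18e-07). LEMD3 moved in opposite directions with the 2 drugs. In A549 it was at 41.9 and 44.2 CPM untreated, 35.9 and 34.5 CPM with palbociclib, 54.7 and 55.4 CPM with indisulam, and 43.8 and 44.6 CPM with the combination. LEMD3 in SUM159 was at 35.0 and 35.1 CPM untreated, 29.4 and 27.9 CPM with palbociclib, 39.4 and 39.8 CPM with indisulam, and 30.5 and 33.6 CPM with the combination. LEMD3 fell with palbociclib by 0.29 ± 0.06 in A549 (FDR = 0.00083) and by 0.29 ± 0.06 in SUM159 (FDR = 0.000655). It rose with indisulam by 0.36 ± 0.06 in A549 (FDR = 0.000101) and by 0.17 ± 0.06 in SUM159 (FDR = 0.0249). The rise in SUM159 lost the call without any 1 of the UT or IN libraries (0.17 to 0.18, highest FDR = 0.0973) and with DESeq2 (0.16, FDR = 0.14). With the combination LEMD3 passed in neither line, at 0.04 ± 0.06 in A549 (FDR = 0.569) and -0.13 ± 0.06 in SUM159 (FDR = 0.067).

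BANF1 (chr11:66002228-66004149) encodes barrier-to-autointegration factor, which binds DNA and LEM-domain proteins and helps the envelope re-form after mitosis. In A549 it was at 197 and 194 CPM untreated, 158 and 167 CPM with palbociclib, 210.5 and 217 CPM with indisulam, and 185 and 183 CPM with the combination. BANF1 in SUM159 was at 124 and 126 CPM untreated, 103 and 98.6 CPM with palbociclib, 121 and 118 CPM with indisulam, and 92.8 and 97.4 CPM with the combination. The combination thus left BANF1 near the palbociclib level in SUM159 and between palbociclib and untreated in A549. BANF1 fell with palbociclib by 0.26 ± 0.04 in A549 (FDR = 0.000137) and by 0.31 ± 0.04 in SUM159 (FDR = 6.21e-06). With the combination its log2 change was -0.09 ± 0.04 in A549 (FDR = 0.0953) and -0.40 ± 0.04 in SUM159 (FDR = 2.68e-07). Of 5 annotated BANF1 pseudogenes, none exceeded 14 counts in any library.

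SUN1 (chr7:816615-896435) and SUN2 (chr22:38733290-38794143) encode the inner membrane components of the LINC complex, and only SUN2 changed by more than 0.2 on the log2 scale with any treatment. SUN2 in A549 was at 58.9 and 57.3 CPM untreated, 28.2 and 29.8 CPM with palbociclib, 52.6 and 55.5 CPM with indisulam, and 32.2 and 29.2 CPM with the combination. SUN2 in SUM159 was at 91.9 and 93.5 CPM untreated, 56.2 and 56.3 CPM with palbociclib, 91.8 and 91.0 CPM with indisulam, and 70.0 and 71.9 CPM with the combination. The combination libraries of SUM159 thus lay between the palbociclib and untreated ones, while in A549 they overlapped the palbociclib ones. SUN2 fell with palbociclib by 1.00 ± 0.06 in A549 (FDR = 9.99e-09) and by 0.72 ± 0.04 in SUM159 (FDR = 2.92e-10). The combination gave a log2 change of -0.92 ± 0.06 in A549 (FDR = 1.49e-08) and of -0.39 ± 0.04 in SUM159 (FDR = 3.66e-07). SUN1 ranged from 89.8 to 108 CPM over the 8 libraries of A549 and from 149 to 183 CPM over those of SUM159. Its log2 change with palbociclib was -0.07 ± 0.04 in A549 (FDR = 0.204) and -0.17 ± 0.04 in SUM159 (FDR = 0.00202), and scaling by total counts gave -0.06 in SUM159 (FDR = 0.218). SUN1 shares 1842 exon bases with GET4 on the same strand, and SUN2 shares 1135 with GTPBP1 on the opposite strand and 76 with DNAL4. No strand setting separates reads in bases shared on the same strand, as for SUN1 with GET4 and SUN2 with DNAL4. For SUN2 with GTPBP1 the strand setting of the counting matters, and it is not given in the sources used here. Counts of these genes are therefore uncertain.

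**Figure D3:**
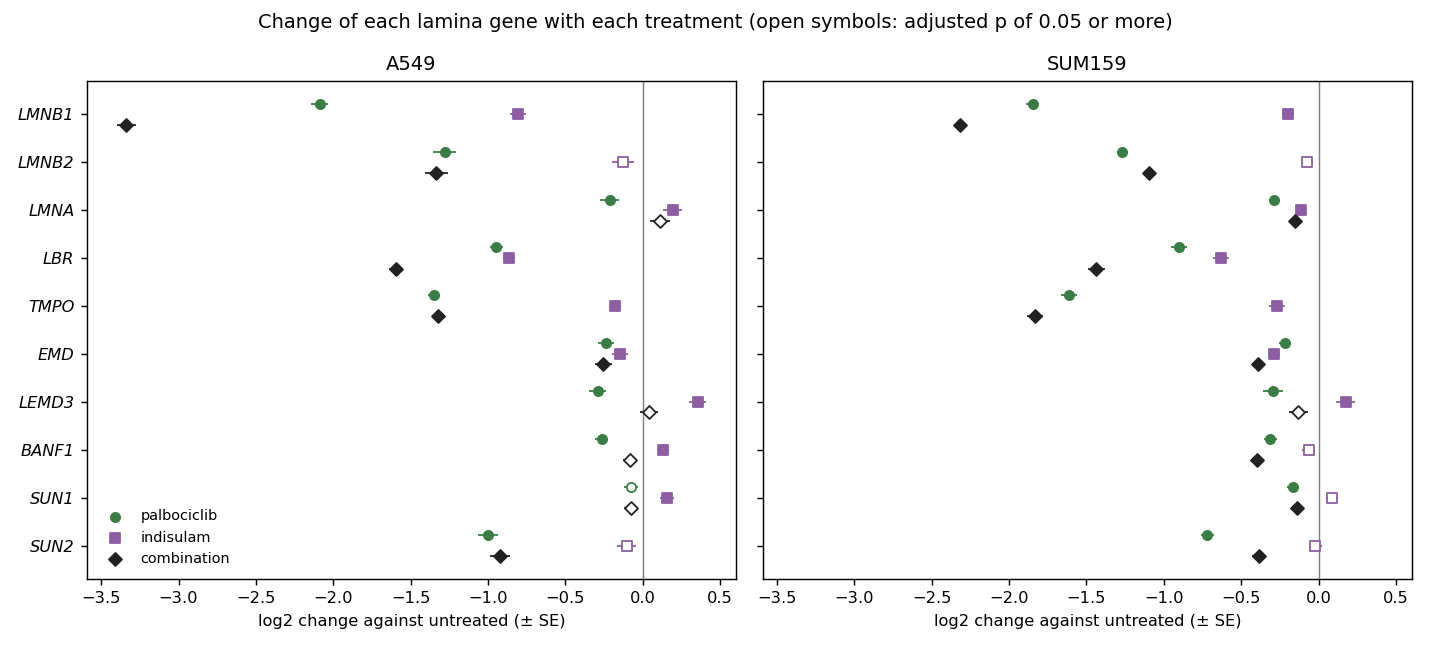
Log2 change of each lamina gene against untreated cells (horizontal axis, bars are SE) with palbociclib (circles), indisulam (squares) and the combination (diamonds) in A549 and SUM159. Filled symbols passed an adjusted p of 0.05, and LMNB1 with the combination lies farthest left at -3.34 in A549 and -2.31 in SUM159.

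Counted over the members, palbociclib alone gave the most one-sided result. The 3 treatments of a line were each compared with the same untreated libraries. In A549, 9 of 10 members were lower and 0 higher with palbociclib, where 21.1% of the 15744 genes tested were called lower and 22.0% higher. In SUM159 all 10 were lower, against 29.0% of 16080 genes called lower and 25.5% higher. The median log2 change of the 10 members was -0.62 in A549 and -0.52 in SUM159, beside 0.03 and 0.02 over all genes. With indisulam, 4 members were lower (LMNB1, LBR, TMPO and EMD) and 4 higher (LMNA, LEMD3, BANF1 and SUN1) in A549, where 25.9% and 23.3% of all genes were called. In SUM159, 5 members were lower (LMNB1, LMNA, LBR, TMPO and EMD) and 1 higher with indisulam, against 24.9% and 21.9% of all genes. Of the A549 calls, those for LMNA, EMD, BANF1 and SUN1 did not hold in every setting. The LMNA call (0.19 ± 0.06, FDR = 0.0189) was lost without the second UT library or either IN library (0.17, 0.22 and 0.18). The EMD call (-0.15 ± 0.05, FDR = 0.0313) was lost without the first UT library or either IN library (-0.10, -0.12 and -0.16), under total counts (-0.12, FDR = 0.081), with no filter on low counts (-0.15, FDR = 0.0565) and with DESeq2 (-0.15, FDR = 0.122). The BANF1 call (0.13 ± 0.04, FDR = 0.0166) was lost without either UT library or the second IN library (0.14, 0.13 and 0.11) and with DESeq2 (0.12, FDR = 0.0795). The SUN1 call (0.16 ± 0.04, FDR = 0.00945) was lost without the second UT or the second IN library (0.14 and 0.14) and with DESeq2 (0.15, FDR = 0.0683). In SUM159 the LMNA call (-0.11 ± 0.03, FDR = 0.0108) was lost without either IN library (-0.11 and -0.11) and under total counts (-0.06, FDR = 0.159).

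With the combination, 6 members were lower in A549 (LMNB1, LMNB2, LBR, TMPO, EMD and SUN2) and 0 higher, beside 30.4% of all genes called lower and 27.4% higher. In SUM159, 9 members were lower, all but LEMD3, and 0 higher, beside 33.1% and 32.2%. The members' median was -0.59 in A549 and -0.39 in SUM159, beside 0.00 and 0.01 over all genes. SUN1 with the combination in SUM159 (-0.14 ± 0.04, FDR = 0.00522) lost the call without the second P+I library (-0.11), and LEMD3 there gained it without either PD library (-0.14 and -0.14) or without the second P+I library (-0.20). Scaling by total counts in place of the trimmed mean raised the median log2 change of all genes by 0.105 for palbociclib and by 0.148 for the combination in SUM159. The share of all called genes that were higher then moved from 46.8% to 62.5% with palbociclib and from 49.3% to 64.3% with the combination in SUM159, while in A549 it moved from 51.1% to 62.4% and from 47.4% to 57.8%. With indisulam in SUM159 it moved from 46.8% to 57.9%. LMNB1, LMNB2, LBR, TMPO, EMD and SUN2 stayed lower with the combination in both lines under that scaling.

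The question of what indisulam added to palbociclib was addressed by comparing the combination with palbociclib alone. LMNB1 and LBR were lower in both lines. LMNB1 changed by a further -1.25 ± 0.07 on the log2 scale in A549 (FDR = 3.02e-09) and by -0.47 ± 0.05 in SUM159 (FDR = 3.16e-07). LBR changed by a further -0.65 ± 0.04 in A549 (FDR = 1.83e-08) and by -0.53 ± 0.06 in SUM159 (FDR = 6.91e-07). These were the only 2 members lower in A549, and LMNA, LEMD3 and BANF1 were higher, beside 27.8% of all genes called lower and 23.7% higher. In SUM159, LMNB1, LBR, TMPO and EMD were lower and LMNB2, LMNA, LEMD3 and SUN2 higher, beside 24.9% and 23.4%. The TMPO call (-0.22 ± 0.05, FDR = 0.0028) was lost without the first P+I library (-0.15), and the LEMD3 call (0.16 ± 0.06, FDR = 0.0339) without the first UT, the second PD, either IN or the second P+I library (0.15, 0.11, 0.15, 0.15 and 0.09), with no filter on low counts (0.14, FDR = 0.15), with DESeq2 (0.15, FDR = 0.163) and with only the groups compared (0.16, FDR = 0.0685). SUN2 was higher by 0.33 ± 0.04 in SUM159 (FDR = 5.99e-06), where LMNB2 was higher by 0.17 ± 0.04 (FDR = 0.000914).

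Against indisulam alone, the combination lowered most members. In A549, 8 of 10 were lower, all but LMNA and EMD, and 0 higher, beside 20.1% of all genes called lower and 18.6% higher. In SUM159, 9 were lower, all but LMNA, and 0 higher, beside 28.0% and 24.9%. The changes of LMNB1 were -2.53 ± 0.06 in A549 (FDR = 3.08e-13) and -2.12 ± 0.04 in SUM159 (FDR = 4.23e-16). LMNB2 changed by -1.21 ± 0.07 (FDR = 7.96e-09) and -1.02 ± 0.04 (FDR = 2.30e-13), TMPO by -1.14 ± 0.04 (FDR = 4.57e-12) and -1.56 ± 0.05 (FDR = 1.24e-13). The EMD call in SUM159 (-0.10 ± 0.04, FDR = 0.0306) was lost in 9 of 15 alternatives. Total counts gave -0.01 (FDR = 0.848), a minimum of 10 counts in every library -0.05 (FDR = 0.236), relative log expression size factors -0.09 (FDR = 0.0616), DESeq2 -0.09 (FDR = 0.164), no filter -0.11 (FDR = 0.0829), and the omission of either IN or either P+I library -0.12, -0.10, -0.12 and -0.09. Under scaling by total counts the higher share of all called genes was 61.2% rather than 48.1% in A549 and 62.4% rather than 47.1% in SUM159.

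The combination was also set against the log2 changes of the 2 drugs added together. LMNB1 was lower than this sum in both lines. The difference was -0.44 ± 0.09 in A549 (FDR = 0.0134), where 2.05% of all genes were called lower and 1.49% higher. In SUM159 it was -0.27 ± 0.06 (FDR = 0.0165), where 2.16% were called lower and 2.22% higher. The A549 difference of LMNB1 ranged from -0.54 to -0.34 over the 8 omissions of a library. It lost the call without either UT library (-0.44 and -0.45) or either IN library (-0.45 and -0.44). The SUM159 difference lost it without the second UT, IN or P+I library (-0.24, -0.27 and -0.25, FDR = 0.0863, 0.077 and 0.0832). Other members lay above the sum or passed no test. TMPO was above it by 0.20 ± 0.05 in A549 (FDR = 0.048), a call lost without either UT, the second PD or either IN library (0.21, 0.20, 0.18, 0.20 and 0.21), under total counts (0.20, FDR = 0.0565) and with a replicate block (0.20, FDR = 0.0696). In SUM159, SUN2 was above it by 0.35 ± 0.06 (FDR = 0.00303), LMNA by 0.25 ± 0.05 (FDR = 0.00754) and LMNB2 by 0.24 ± 0.05 (FDR = 0.0117). The LMNA call was lost without the second IN or the second P+I library (0.24 and 0.23), and the LMNB2 call without the first UT, either IN or the second P+I library (0.23, 0.24, 0.22 and 0.24). In all, 1 member was lower and 1 higher than the sum in A549, and 1 lower and 3 higher in SUM159. With DESeq2 the higher share of all genes called in A549 was 53.9% rather than 42.1%.

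**Figure D4:**
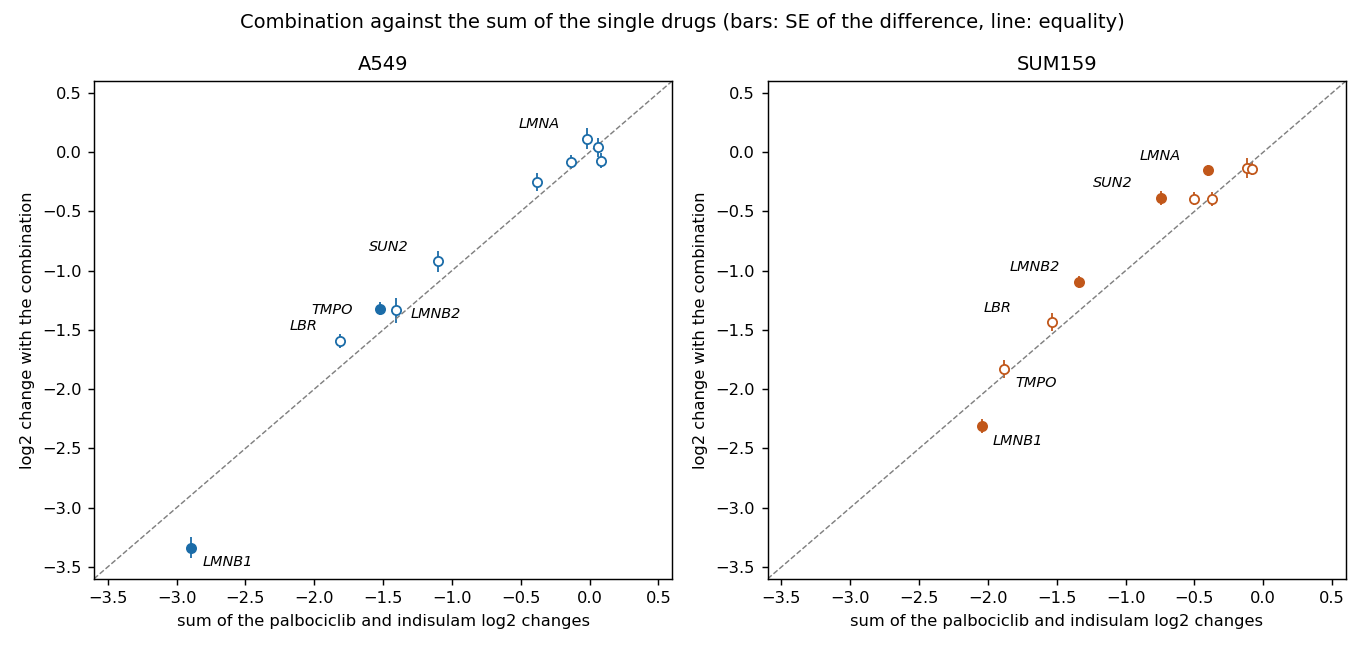
Log2 change with the combination (vertical axis) against the sum of the palbociclib and indisulam log2 changes (horizontal axis) for the 10 lamina genes, with the SE of the difference as bars and equality as a dashed line. Filled points passed an adjusted p of 0.05, and LMNB1 lies below the line by 0.44 in A549 and by 0.27 in SUM159.

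The untreated lines differed in most members. LMNB1 did not pass the test, with mean levels of 200.4 CPM in A549 and 194 CPM in SUM159 on the common scale of all 16 libraries and a log2 difference (SUM159 against A549) of -0.05 ± 0.05 (FDR = 0.339). EMD was higher in SUM159 by 1.01 ± 0.05 (FDR = 3.54e-16), SUN1 by 0.68 ± 0.04 (FDR = 3.75e-13) and LMNA by 0.67 ± 0.05 (FDR = 2.47e-11). SUN2 was higher by 0.54 ± 0.05 (FDR = 7.36e-10) and LMNB2 by 0.31 ± 0.06 (FDR = 3.70e-05). LBR was lower in SUM159, with a difference of -1.06 ± 0.05 (FDR = 4.77e-16), as were TMPO (-0.84 ± 0.05, FDR = 1.87e-14), BANF1 (-0.78 ± 0.04, FDR = 1.64e-14) and LEMD3 (-0.43 ± 0.06, FDR = 8.70e-07). The 5 higher and 4 lower members compare with 38.3% and 38.0% of 17764 genes. Per kilobase of annotated exon, BANF1 had the highest level in untreated A549 (131 CPM per kilobase), followed by TMPO (74.9), LMNA (54.9) and LMNB1 (53.4), and SUN2 the lowest (6.95). By this length, LMNA and LMNB1 were within 1 SD of the LMNA duplicates (1.52). LBR (49.2) and LMNB2 (49.0) were also closer to each other than the LMNB2 duplicates (SD 3.07). This closeness depended on the length used, which the duplicate SD does not cover. By canonical transcript length, untreated A549 held 141 CPM per kilobase of LMNA and 67.1 of LMNB1. LBR then ranked above LMNB1 and lay further from LMNB2. In untreated SUM159, LMNA was highest (95.5 CPM per kilobase), then BANF1 (83.6), EMD (68.6) and LMNB2 (66.6), and LEMD3 was lowest (6.29). With canonical transcript lengths the same 3 genes were highest in each line.

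The responses of the lines were compared in a fit of all 16 libraries, in which the median log2 difference of all genes was 0.08 for palbociclib, 0.02 for indisulam and 0.10 for the combination. Leaving out single libraries moved these medians between -0.10 and 0.09, between -0.01 and 0.03, and between -0.06 and 0.11. Differences of the members are therefore read beside them. LMNB1 with the combination differed by 1.09 ± 0.08 (SUM159 minus A549, FDR = 3.35e-10) and LMNB1 with indisulam by 0.61 ± 0.06 (FDR = 7.19e-07), in each case a smaller fall in SUM159. SUN2 with the combination differed by 0.60 ± 0.08 (FDR = 1.42e-06), also a smaller fall in SUM159. TMPO with the combination differed by -0.44 ± 0.07 (FDR = 1.88e-05), a larger fall in SUM159. LMNA with indisulam differed by -0.31 ± 0.07 (FDR = 0.00608), and BANF1 with the combination by -0.24 ± 0.06 (FDR = 0.0027). These 6 calls held without any 1 library. For palbociclib, 2 members were called higher in this difference (LMNB1 and SUN2) and 0 lower, beside 9.65% and 3.15% of all genes. For indisulam, 2 were higher (LMNB1 and LBR) and 2 lower (LMNA and BANF1), beside 8.04% and 6.97%. For the combination, 4 were higher (LMNB1, LMNB2, LBR and SUN2) and 3 lower (LMNA, TMPO and BANF1), beside 19.1% and 11.8%. With DESeq2 the higher share of all called genes was 42.2% rather than 75.4% for palbociclib and 44.7% rather than 61.8% for the combination. With total counts it was 61.3% for palbociclib.

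**Figure D5:**
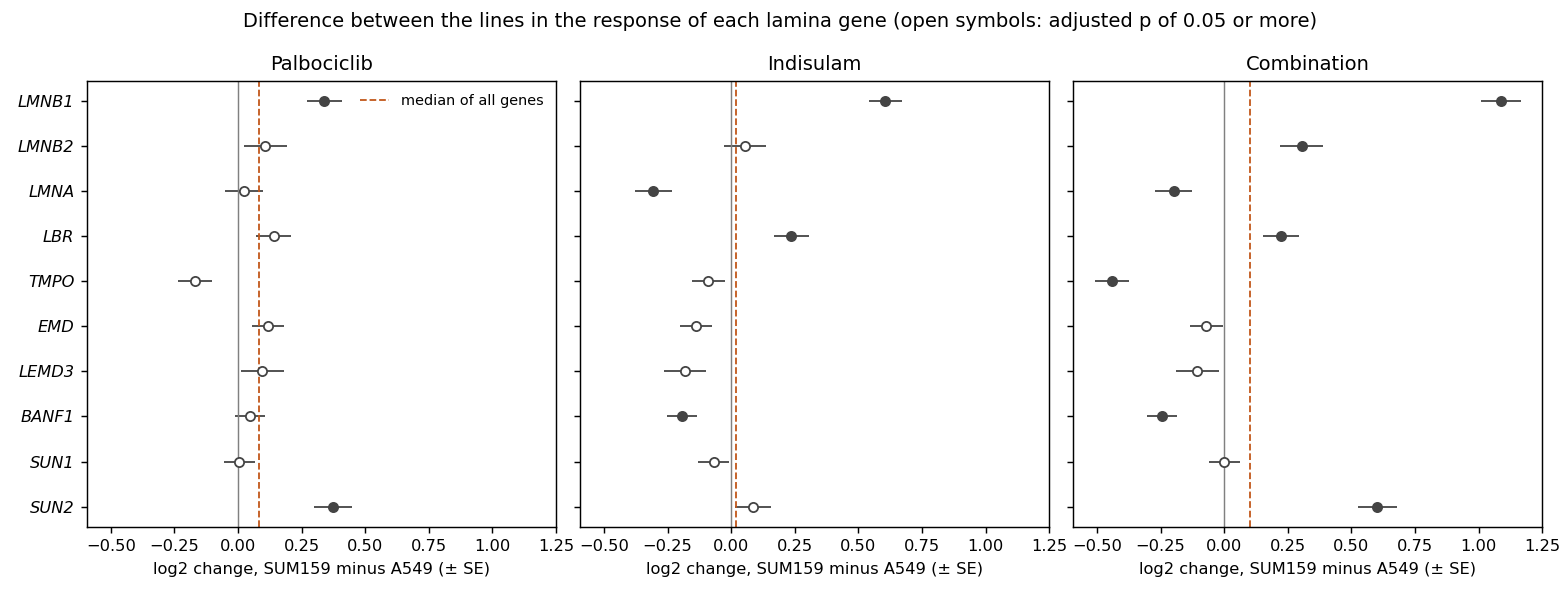
Difference between the lines in the log2 change of each lamina gene (SUM159 minus A549, horizontal axis, bars are SE) for palbociclib, indisulam and the combination. The dashed line is the median of all genes, filled points passed an adjusted p of 0.05, and LMNB1 lies farthest right with the combination at 1.09.

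Promoters were examined because LMNB1, LMNB2, TMPO, LBR and SUN2 fell together with palbociclib. RefSeq promoter windows (GRCh38.p14, 250 bases before to 50 after a start) were found for 9 of 10 members. The window nearest the canonical start was used, which lay 783 bases from it for LBR and 7995 for LMNA and at it for the other 7. Both strands were searched for the CHR element (TTTGAA) and the CCAAT box (CCAAT), which recur in cell cycle promoters, and for the E2F core as TTCCCGC or as TTCGCGC or as TTGCCGC or as TTGGCGC. The 4 of these 5 whose window holds a motif are shown by the stretch that holds it, on the gene's strand, with motif letters in capitals (ATTGG and TTCAAA are CCAAT and TTTGAA on the other strand).
LMNB1: tgcctgctccccATTGGcccatggtagtca
LMNB2: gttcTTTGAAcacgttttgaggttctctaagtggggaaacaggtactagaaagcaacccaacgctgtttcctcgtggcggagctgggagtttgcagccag
TMPO: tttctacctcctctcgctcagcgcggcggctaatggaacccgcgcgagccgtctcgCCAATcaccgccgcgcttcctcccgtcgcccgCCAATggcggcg
SUN2: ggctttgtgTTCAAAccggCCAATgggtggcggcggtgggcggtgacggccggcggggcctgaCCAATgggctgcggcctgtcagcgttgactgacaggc

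These stretches lie at chr5:126776986-126777015 (+), chr19:2457110-2457209 (-), chr12:98515470-98515569 (+) and chr22:38756019-38756118 (-). The motifs did not overlap each other. A CCAAT box was in 5 of 9 member windows (LMNB1, TMPO, EMD, LEMD3 and SUN2), and 34.6% of all 35116 windows held one. EMD and LEMD3, which also hold it, changed with palbociclib by -0.24 and -0.29 in A549 and by -0.22 and -0.29 in SUM159. Whether these motifs had a part in the changes was not tested. A CHR element was in 2 of 9 (LMNB2 and SUN2) and in 15.2% of all windows, and an E2F core was in 2 of 9 (LEMD3 and BANF1) and in 12.97% of all. The LBR window held none of these letters.

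By the Pearson correlation of log2 CPM over the 16 libraries after the mean of each line was removed, the genes most like LMNB1 among 9647 were BRCA1 (r = 0.996), ZNF367 (0.993), TOPBP1 (0.993), RFC5 (0.991) and SMC4 (0.991). The points share duplicates and treatments, so the values describe these libraries. BRCA1, a DNA repair gene, was at 119.6 and 132 CPM in untreated A549 and 21.3 and 23.7 CPM with the combination, and at 155 and 163 CPM and 47.5 and 48.7 CPM in SUM159. Of the other members, LMNB2 (r = 0.935, position 388), TMPO (0.930, position 417), LBR (0.912, position 545) and SUN2 (0.855, position 909) were most like LMNB1, and LMNA was least like it (0.182, position 4366).

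Other genes of the nuclear envelope were counted in 5 lists, to be read beside the share of all genes called lower, which was 21.1% in A549 and 29.0% in SUM159 for palbociclib, 25.9% and 24.9% for indisulam, and 30.4% and 33.1% for the combination. With the combination, 27.4% and 32.2% were higher. Of 32 nuclear pore genes, 30 were lower and 0 higher with palbociclib in each line, 20 lower in each line with indisulam (4 higher in A549 and 3 in SUM159), and 29 in A549 and 32 in SUM159 lower with the combination. Their median log2 change with the combination was -0.67 in A549 and -0.73 in SUM159, beside 0.00 and 0.01 over all genes. NDC1, a membrane protein that anchors the pore, fell by 1.97 ± 0.06 in A549 (FDR = 5.87e-13) and by 2.02 ± 0.05 in SUM159 (FDR = 5.03e-16). Of 10 chromatin partners of the lamina, 9 were tested in A549, where 8 were lower and 0 higher with the combination, and 10 in SUM159, where 7 were lower and 1 higher. RBL1, a member of the retinoblastoma family, fell by 2.98 ± 0.10 in A549 (FDR = 2.83e-12) and by 2.07 ± 0.06 in SUM159 (FDR = 1.07e-14). Of 22 genes of envelope breakdown and reassembly, 9 were lower and 7 higher with the combination in A549, and 14 lower and 3 higher in SUM159, so that the A549 counts lie near the shares over all genes. The mitotic kinases CDK1 and PLK1, which phosphorylate the envelope at mitosis, fell by 2.89 ± 0.05 and fell by 2.82 ± 0.05 in A549 (FDR = 9.74e-15 and 6.97e-15). In SUM159 their log2 changes were -2.26 ± 0.05 and -2.36 ± 0.04 (FDR = 6.00e-16 and 2.35e-17). CHMP2A, an ESCRT-III subunit, rose by 0.33 ± 0.04 in A549 (FDR = 1.18e-05) and by 0.58 ± 0.05 in SUM159 (FDR = 2.95e-08). Of 6 lamin maturation genes, 2 were lower and 1 higher in A549 and 3 lower in SUM159 with the combination. ICMT, which methylates the processed lamin tail, fell by 0.71 ± 0.05 in A549 (FDR = 1.57e-08) and by 0.74 ± 0.04 in SUM159 (FDR = 1.84e-10).

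Of 18 other membrane proteins of the envelope, 15 were tested in A549, with 7 lower and 2 higher with the combination, and 16 in SUM159, with 8 lower and 4 higher. The alternatives run on this list in A549 gave 5 to 6 lower and 0 to 4 higher. Of all genes, 30.4% were lower and 27.4% higher in A549 and 33.1% and 32.2% in SUM159. NRM, which encodes nurim, fell by 1.72 ± 0.11 in A549 (FDR = 6.37e-09) and fell by 1.60 ± 0.07 in SUM159 (FDR = 2.21e-12). SYNE2, which encodes the outer membrane protein nesprin-2 that SUN proteins bind, moved in opposite directions in the lines. SYNE2 was at 43.5 and 48.8 CPM in untreated A549 and 18.6 and 22.9 CPM with the combination, and at 27.0 and 30.0 CPM in untreated SUM159 and 104 and 97.4 CPM with the combination. Its log2 change was -1.15 ± 0.09 in A549 (FDR = 8.18e-08) and 1.82 ± 0.06 in SUM159 (FDR = 1.27e-13), and the difference between the lines was 3.04 ± 0.12 (FDR = 1.99e-14).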

How the data were processed

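Raw counts per Ensembl gene were deposited by the authors, 1 file per library, without normalization or pooling. Per the labels and the study's methods, stranded poly(A) libraries were sequenced as pairs, trimmed with SeqPurge and aligned to GRCh38 with HISAT2 2.2.1. The strand setting and annotation of the counting are not given in the sources used here. Rows that name no gene held 13.2% to 16.4% of reads and were left out. Symbols, coordinates and lengths came from GENCODE 44.

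Changes were tested with edgeR 4.0.16 (quasi-likelihood, filterByExpr, trimmed mean of M-values, Benjamini-Hochberg over all genes, threshold 0.05), with the 8 libraries of a line, or all 16 between lines, in 1 fit. SE was derived from the F statistic. DESeq2 1.42.0, other scalings, filters and leaving out libraries were alternatives. Before use, the comparison of palbociclib with untreated cells in each line was tested on simulated counts. There few genes changed, as many up as down and by a fixed size. In the data 21.1% of genes were called lower and 22.0% higher in A549, and 29.0% and 25.5% in SUM159. The simulation therefore cannot show how the scaling behaves when so many genes change. The tests against the sum of the single drugs and between the lines were not simulated. Duplicates differed by more than sampling noise (chi-square per degree of freedom 1.59 to 9.13). The least visible level, 3 counts, was 0.0880 to 0.164 CPM, for counting error only. The members, lists and tests were chosen with earlier results of these data known. Named were the 10 members in every comparison where they passed, from each list the 2 largest falls and rises with the combination (those printed are examples), and the 5 genes most like LMNB1 among those averaging 5 CPM or more in both lines, on log2(CPM + 0.5). One cell type marker is not reported here.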

Additional observations from a re-analysis of the deposited data

Results flagged for a closer look

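The change of 13 member and treatment pairs differed between the lines by a test of the difference itself (SUM159 minus A549, edgeR interaction, adjusted over all genes). For palbociclib these were LMNB1 (0.34 ± 0.07, adjusted p = 0.00157) and SUN2 (0.37 ± 0.07, adjusted p = 0.00124). For indisulam they were LMNB1 (0.61), LMNA (-0.31), LBR (0.24 ± 0.07, adjusted p = 0.0218) and BANF1 (-0.19 ± 0.06, adjusted p = 0.0272). For the combination they were LMNB1 (1.09), LMNB2 (0.31 ± 0.08, adjusted p = 0.00738), LMNA (-0.20 ± 0.07, adjusted p = 0.0432), LBR (0.22 ± 0.07, adjusted p = 0.0201), TMPO (-0.44), BANF1 (-0.24) and SUN2 (0.60).

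The LMNB1 difference for palbociclib fell to between 0.11 and 0.19 and lost its call in 7 of 16 omissions, each of an A549 library (either UT, IN or P+I library, or the second PD library), and that of SUN2 fell to between 0.16 and 0.23 in 5 (either UT or IN library, or the first PD library). With the combination, the LMNB2 difference lost its call in 7 omissions of A549 libraries, all but the first P+I library, with 0.0040 without the second P+I library. The LBR difference lost it in 10 (every A549 library, the second SUM159 UT and the first SUM159 P+I library), down to 0.06 without the second A549 UT library. With DESeq2 the LMNB2 (0.22) and LBR (0.14) differences with the combination also lost their calls. LMNA lost it in 4 (either SUM159 UT or P+I library, -0.19 to -0.21). With indisulam, LBR lost its call in 6 (the second A549 UT, either A549 IN, either SUM159 UT and the first SUM159 IN library, 0.20 to 0.24) and BANF1 in 7 (the second A549 UT, either A549 IN and either SUM159 UT or IN library, -0.22 to -0.18).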

How the results depend on the processing

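The alternatives were summed up for 119 of the 160 member results. These were the ones that passed the main test and all those against untreated cells or between untreated lines. Of these 119, 85 had the same direction and call in each alternative. The sign was reversed in 13 alternatives of the 119 results, and in 122 alternatives when all results were counted. With DESeq2, 5 members rather than 8 were called with indisulam in A549. Against the sum of the single-drug changes in A549, total counts gave 1 and the replicate block gave 1, rather than 2. Leaving out single libraries, which leaves 1 group with a lone library assumed to vary like the others, gave 4 to 9 calls for indisulam in A549. It gave 0 to 4 and 1 to 4 against the sum in A549 and SUM159, and 1 to 3 and 2 to 4 for the palbociclib and indisulam responses between lines. In comparisons with untreated cells and between untreated lines, total counts turned the sign of these values: BANF1 (0.0030) and SUN1 (0.014) with the combination in A549, SUN2 with indisulam (0.034) and LEMD3 (0.016) and SUN1 (0.0078) with the combination in SUM159, and LMNB1 between untreated lines (0.051). In the other comparisons they did so for values that passed no test, among them EMD (0.012) and SUN1 (0.027) for the combination against palbociclib in A549 and LMNA (0.054) for the combination against indisulam in SUM159. Single omissions gave -0.020 to 0.23 for LMNA with the combination in A549 and -0.070 to 0.037 for LMNB1 between untreated lines. The differences between duplicates correlated little from group to group (-0.114 to 0.114 over 12 pairs of groups). This shows no strong effect shared by replicate number but cannot settle whether the numbers pair the samples. The replicate block changed 2 of 160 calls, those of TMPO against the sum in A549 and of LMNA in the combination response. Crossed numbers, chosen after seeing the data, were run for the combination against palbociclib and called 5 members in A549 and 8 in SUM159, as without a block. With at least 400 counts per library, depth left every member testable. The cause of these changes was not tested.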
